A study of Saccharomyces cerevisiae with 2 samples.

Results

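HTA1 and HTB1 are a divergently transcribed pair of histone genes on chromosome 4 of the budding yeast Saccharomyces cerevisiae, and they are 2 of the 6477 genes in the RefSeq gene table at hand. They were chosen by name, and the region examined was a stretch of 12 kb around them, which is 12 of 12042 nuclear bins of 1 kb. Positions are those of the tag files (sacCer1 release). HTB1 is read from the minus strand, and its coding region of 396 bp was taken as 914.3 to 914.7 kb. HTA1 is read from the plus strand, and its coding region of 399 bp was taken as 915.5 to 915.9 kb. The shared promoter is the 817 bp between them. These borders hold to within about 50 bp, because the annotation they rest on belongs to another assembly. The left flank was the 5316 bp before HTB1, and the right flank the 5072 bp after HTA1. In gene order CRF1 lies next to HTB1 on the left, and ADK1 and then SIR4 follow HTA1 on the right.

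HTA1 encodes histone H2A and HTB1 encodes histone H2B, which pair with each other and, with histones H3 and H4, form the protein core that DNA wraps around in a nucleosome. Transcription of the pair runs outwards from the single promoter and peaks in S phase, when new chromatin is made. The activator Spt10 binds upstream elements in this promoter, and the HIR complex, a histone chaperone, represses it outside S phase. Promoters in yeast often hold a stretch with few nucleosomes, bordered by a well-placed nucleosome near the start of the gene. A second pair, HTA2 and HTB2, encodes nearly identical proteins elsewhere in the genome.

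Both cultures carried the alleles CBF1-3HA::LEU2 and PHO4-MYC::TRP1, which put tags on the DNA-binding factor Cbf1 and on the phosphate-response factor Pho4. Cells in log phase spent 3 hours without phosphate and then 80 minutes in 0 mM phosphate (the starvation library) or in 10 mM phosphate (the high phosphate library). Mononucleosomal DNA released by micrococcal nuclease, which cuts the linkers between nucleosomes, was sequenced, with 1 library per condition. No difference below has a replicate check, no test between conditions was possible, and intervals cover counting error only. The starvation library held 1001229 nuclear tags, a mean of 83.2 per kb, and the high phosphate library 2598022, a mean of 216 per kb. Each library pools many cells, so a position occupied in more cells and a position whose DNA was recovered more fully cannot be told apart. Sequenced fragments were estimated at 155 bp for starvation and at 142 bp for high phosphate, and moving tags to the fragment middle of their own library left the ratios of the 5 spans within their intervals.

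Taken as a whole, the shared promoter stood near the library mean in starvation and below it in high phosphate. It held 67 tags in starvation, or 82.0 per kb, and 142 in high phosphate, or 174 per kb. This is 0.986 times the library mean in starvation and 0.805 times in high phosphate, and 58.0% and 14.8% of nuclear windows of this length held fewer tags. The scaled log2 ratio, starvation over high phosphate here and below, was 0.29, with a 95% exact conditional binomial interval of −0.15 to 0.72 that included 0. Among all nuclear windows of this length with at least 20 tags over both libraries, 18.3% differed at least 2-fold in either direction, and the promoter was not one of them. The strands gave different directions, with a log2 ratio of 0.79 (0.16 to 1.41) from plus-strand tags and −0.18 (−0.84 to 0.45) from minus-strand tags.

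The coding region of HTA1 was filled to near the library mean in both conditions, and HTB1 was the sparsest of the 5 spans in starvation. HTA1 held 34 tags in starvation (85.2 per kb, 1.02 times the library mean) and 83 in high phosphate (208 per kb, 0.963 times the mean). Its log2 ratio was 0.088 (−0.53 to 0.68), and −0.70 from plus-strand tags alone. HTB1 held 18 tags in starvation (45.5 per kb, 0.546 times the mean) and 73 in high phosphate (184 per kb, 0.854 times the mean). Its log2 ratio of −0.64 had an interval from −1.48 to 0.12. That interval left 0 out under 2 alternatives. These were the span shifted 50 bp to the left (−0.89, −1.80 to −0.071) and the deeper library thinned to equal depth (−1.04, −1.94 to −0.19). Thinning was a single random draw of high phosphate tags and was not repeated, so its shift can come from the draw alone. Whether HTB1 differed is thus not settled. At least 2-fold differences occurred in 29.5% of windows as long as HTA1 and in 29.9% of those as long as HTB1. HTA1 held 1.87 times the tag density of HTB1 in starvation and 1.13 times in high phosphate, a log2 difference of 0.73 (−0.27 to 1.77). In the same single draw HTA1 gave 0.56 (−0.24 to 1.39), and the difference was 1.59 (0.39 to 2.83), which left out 0. The same limit holds for these values. Because only uniquely placed tags were deposited, reads shared with HTA2 or HTB2 would be missing from both coding regions, and how many were lost was not tested.

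Set against the coding regions, the promoter gave a density ratio above 1 in starvation and below 1 in high phosphate. Its tag density was 1.25 times that of the pooled coding regions in starvation and 0.886 times in high phosphate. This log2 difference of 0.50 (−0.15 to 1.15) does not depend on how the libraries are scaled. Its interval included 0, but with spans shifted 50 bp to the left it did not (0.66, 0.0065 to 1.32). Against the pooled flanks the density ratios were 1.10 and 0.853, a log2 difference of 0.36 (−0.095 to 0.81).

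Cut into 3 equal parts, a division chosen after the values were seen, the promoter was uneven. The part next to HTB1 held 30 starvation tags and 46 high phosphate tags, a log2 ratio of 0.76 (0.045 to 1.45). The middle part held 27 and 44 tags, with a log2 ratio of 0.67 (−0.077 to 1.39). The part next to HTA1 held only 10 starvation tags against 52, a log2 ratio of −1.003 (−2.14 to −0.011). Tags thus lay towards HTB1 in starvation, at 1.33, 1.19 and 0.440 times the library mean from HTB1 to HTA1. In high phosphate the 3 parts were more alike, at 0.783, 0.749 and 0.882 times. Of the starvation tags, 18 lay from 914951 to 915000, across the border at 914984 between the first and the middle part. The border thus cuts the peak described below at 914969. The middle part also held 6 starvation tags from 915001 to 915050 and 10 from 915051 to 915100. These lay near another starvation maximum, also described below. Differences of at least 2-fold were common at this length, in 35.8% of windows. Scaling to the median 10 kb bin adds 0.063 to every log2 ratio. That is enough to bring the part next to HTA1 inside 2-fold and its interval across 0.

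**Figure D1:**
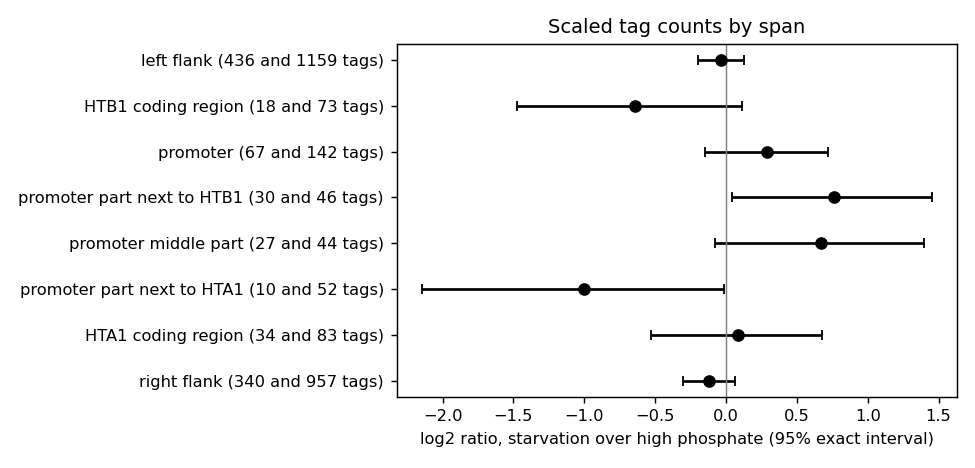
Log2 ratio of scaled tag counts, starvation over high phosphate (x axis), in each span with its tag counts (y axis). Points are the ratios and bars their 95% exact conditional binomial intervals. The part of the promoter next to HTA1 lies at −1.003, while the promoter as a whole lies at 0.29 with an interval that includes 0.

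Nucleosome positions across the pair were read as dyads, the nucleosome midpoints, which were called as maxima of the tag density smoothed with an SD of 20 bp, above the library mean and at least 120 bp apart. Between the outer ends of the coding regions the starvation map held 5 dyads and the high phosphate map 8. Of these, 3 were shared to within 20 bp, a number that was 2 with a smoothing SD of 30 bp and 4 with the deeper library thinned. This is 60% of the starvation and 37.5% of the high phosphate dyads, beside 74.9% and 58.1% over the genome. With so few dyads in the pair, these shares are loosely bounded. The spacing rule also left uncalled a starvation maximum near the high phosphate dyad at 915075, described below. The 3 shared dyads lay in the promoter 105 bp upstream of the HTB1 start, in the promoter 273 bp upstream of the HTA1 start, and 92 bp inside HTA1 (distances in starvation). The first and the last of these were the firmest in both maps, and the middle one was weak and not shared with the wider smoothing.

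The shared dyad nearest to HTB1 had a similar height in both libraries, though its ratio was loosely bounded. It lay at 914817 in starvation and at 914814 in high phosphate, 3 bp apart, with heights of 2.48 and 2.34 times the library mean. Within 40 bp of the starvation position there were 12 starvation tags and 37 high phosphate tags, a log2 ratio of −0.25 (−1.32 to 0.72). The weak shared dyad stood at 915257 and 915249, with heights of 1.41 and 1.17 times the mean.

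The shared dyad inside HTA1 was taller in starvation. It lay at 915622 in starvation and 915618 in high phosphate, 4 bp apart, with heights of 3.41 and 1.70 times the library mean. Within 40 bp of it there were 23 starvation tags and 26 high phosphate tags, a log2 ratio of 1.20 (0.32 to 2.07). Of all starvation dyads in the nuclear genome, 26% were at least 2-fold higher in starvation, so a rise of this size at a dyad chosen in that library is common. Most of the tags behind it were on the minus strand, 19 of 23 in starvation and 20 of 26 in high phosphate.

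A dyad in the promoter between these was placed in starvation and absent from the high phosphate map. It lay at 914969, 257 bp upstream of the HTB1 start and 561 bp upstream of the HTA1 start, and stood at 3.66 times the library mean. Within 40 bp of it there were 19 tags in starvation and 3 in high phosphate, although the high phosphate library was the deeper one. The log2 ratio was 4.04 (2.27 to 6.44), and 99.9% of the 41809 starvation dyads of the genome had a lower one. The position was singled out after its values were seen, as the tallest starvation dyad of the promoter, so this rank is a description.

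Both strands carried the difference at that dyad. The starvation tags were 11 on the plus strand, from 914871 to 914927, and 8 on the minus strand, from 915024 to 915063. In high phosphate the same moved positions held 1 plus-strand and 2 minus-strand tags. The nearest high phosphate dyad was 106 bp away at 915075, where it reached 1.15 times the library mean. Around that position, within 40 bp, there were 14 starvation and 19 high phosphate tags, a log2 ratio of 0.94 (−0.17 to 2.01). The starvation curve also peaked near 915075, at −469 bp from the HTA1 start, beside −455 bp for the high phosphate dyad. There it reached 2.47 times its library mean. It was not called because it lay less than 120 bp from the taller starvation dyad at 914969. The distance of 106 bp thus does not show a shifted nucleosome.

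**Figure D2:**
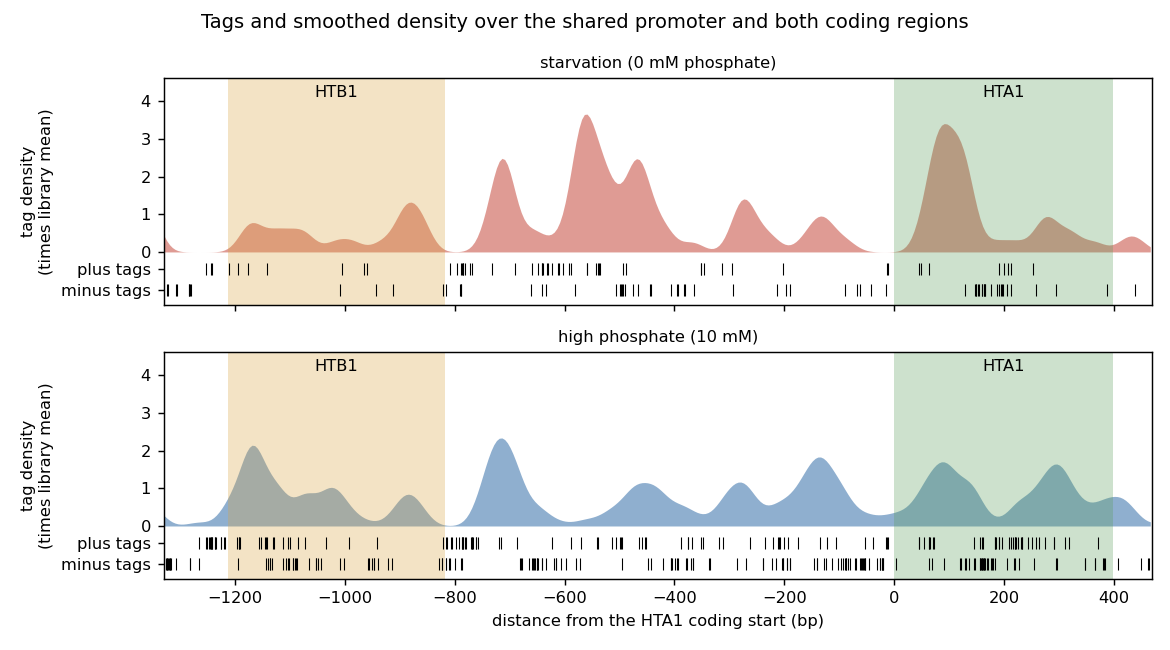
Smoothed tag density in multiples of the library mean (y axis) against distance from the HTA1 coding start in bp (x axis). HTB1 and HTA1 are shaded, and single tags are drawn as ticks, by strand, below each curve (starvation above, high phosphate below). Ticks stand at unmoved tag positions, while the curves use tags moved 73 bp. The starvation curve peaks at 3.66 in the promoter, 561 bp upstream of HTA1, where the high phosphate curve is low, and both curves peak at the dyads 105 bp upstream of HTB1 and inside HTA1.

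The high phosphate map had dyads without a called starvation partner on the HTA1 side of the promoter and in both genes. In the promoter it had a dyad at 915394, 136 bp upstream of the HTA1 start, at 1.83 times the mean. Within 40 bp of it there were 30 high phosphate tags and 5 starvation tags, a log2 ratio of −1.21 (−2.93 to 0.17). In HTB1 the tallest was at 914363, near the end of the gene, at 2.15 times the mean with 27 high phosphate and 4 starvation tags (log2 ratio −1.38, −3.35 to 0.14). A second in HTB1, at 914505, barely passed the mean at 1.03 times. In HTA1 an additional dyad stood at 915824, 294 bp inside the gene, at 1.65 times the mean with 27 high phosphate and 6 starvation tags (log2 ratio −0.79, −2.36 to 0.51). The intervals of the dyads at 915394, 914363 and 915824 included 0. Starvation density also had maxima near these positions, at −134, −1169 and 281 bp from the HTA1 start. They reached 0.953, 0.779 and 0.941 times its library mean, below the mean that a called dyad had to pass. The missing calls thus do not show that starvation lacked nucleosomes there. The starvation map had 1 dyad in HTB1 that high phosphate lacked, at 914650, 62 bp inside the gene, at 1.32 times the mean, with 7 starvation and 12 high phosphate tags. After thinning, high phosphate also had a dyad there, at 914641.

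The start of HTB1 held no moved tags in either library. No moved tag fell from 914670 to 914793 in starvation, a stretch of 124 bp, nor from 914671 to 914775 in high phosphate, a stretch of 105 bp. At the mean density of each library these would have held 10.3 and 22.7 tags. In 48 steps of 50 bp across the pair, 2 steps were empty in both libraries, 1 at the HTB1 start (914701 to 914750) and 1 beyond the end of HTB1 (914201 to 914250). A count of 0 in a step allows up to 3 tags, which is 0.721 times the mean in starvation and 0.278 times in high phosphate. Depth therefore limits such statements more in starvation. As in the coding regions, reads shared with HTB2 would be missing here, and how many were lost was not tested.

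The start of HTA1 held no moved tags in starvation and few in the deeper high phosphate library. A stretch of 143 bp, from 915443 to 915585, held no starvation tag, where the library mean would have given 11.9. The high phosphate library held 11 tags there, against 30.9 at its mean. Beyond the end of HTB1, a stretch of 173 bp from 914178 to 914350 was empty in starvation and held 11 high phosphate tags, against 37.4 at the mean. Both stretches were thus sparse in high phosphate too. These stretches and those at the HTB1 start were picked as among the longest empty ones of their library near the pair. Emptiness in that library therefore follows from the choice. Reads shared with HTA2 or HTB2 would be missing near both genes in either library, and their number was not tested.

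The flanks had ratios near 0 in total. The left flank held 436 starvation and 1159 high phosphate tags, a log2 ratio of −0.035 (−0.20 to 0.13). The right flank held 340 and 957 tags, a log2 ratio of −0.12 (−0.30 to 0.063), with −0.25 (−0.47 to −0.024) from plus-strand tags and 0.15 (−0.17 to 0.46) from minus-strand tags. At least 2-fold differences occurred in 1.65% of windows as long as the left flank and in 1.75% of those as long as the right. By bins of 1 kb, 1 of 12 was at least 2-fold lower in starvation, against 9.4% of all nuclear bins, and 0 of 12 were at least 2-fold higher, against 6.44%. The lower bin lay in the left flank from 910001 to 911000 and held 46 and 243 tags, just past the 2-fold line, which it no longer passed with scaling to the median 10 kb bin or with unmoved tags. The 2 bins that cover the pair held 75 and 69 starvation tags and 176 and 186 high phosphate tags.

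On the scale of single nucleosomes the locus varied more in starvation, as the genome did. Of 60 bins of 200 bp, 59 had at least 20 tags, and 16 of these were at least 2-fold lower in starvation, against 26.9% of all nuclear bins. Another 6 of 59 were at least 2-fold higher, against 13.2%. Both shares were near those of the genome. The coefficient of variation over these bins was 95.4% in starvation and 34.7% in high phosphate, beside 86.2% and 35.7% over all nuclear bins. These values were not matched for depth, and counting error is larger in the shallower starvation library. Nor were they corrected for collapsed repeat tags, which flatten tall peaks most in the deeper library.

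**Figure D3:**
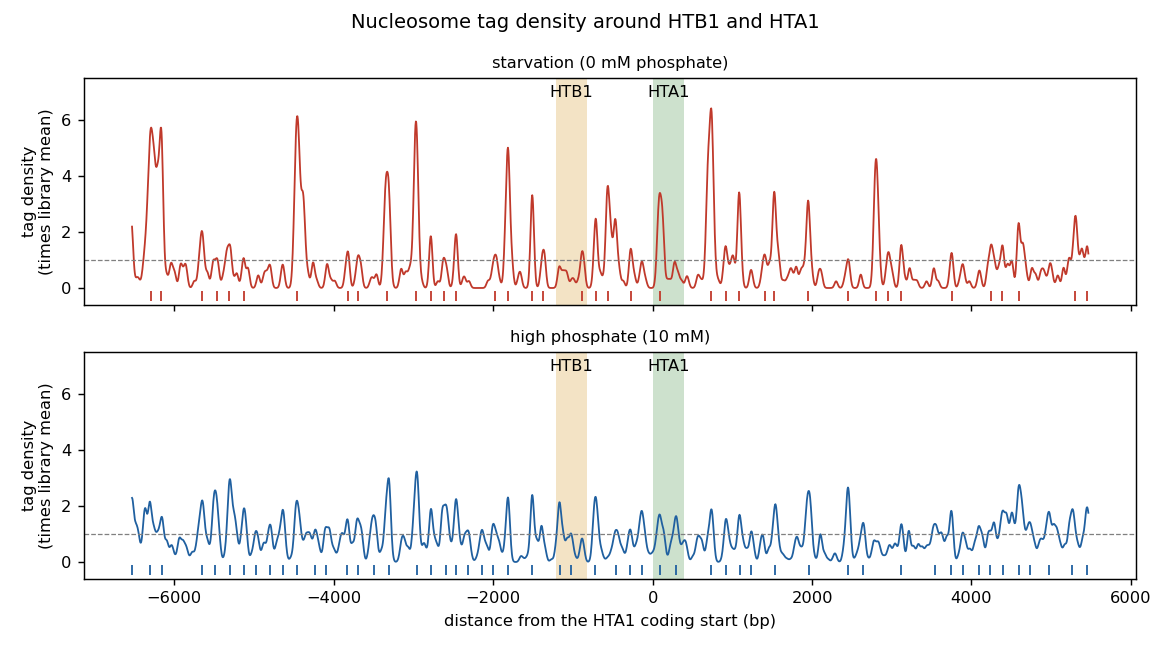
Smoothed tag density in multiples of the library mean (y axis) over the 12 kb against distance from the HTA1 coding start in bp (x axis), starvation above and high phosphate below; ticks are called dyads, the dashed line is the library mean and HTB1 and HTA1 are shaded. Starvation peaks reach 6.44 and high phosphate peaks 3.24 times the mean.

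Over the 12 kb, 39 starvation dyads and 54 high phosphate dyads were called. Of the starvation dyads 30 had a high phosphate dyad within 20 bp, near the 74.9% found over the genome. Of the high phosphate dyads 31 were matched, near the genome's 58.1%. Neighbouring starvation dyads were a median of 195 bp apart, beside 202 bp over the genome, and neighbouring high phosphate dyads 185 bp, beside 179 bp. The tallest starvation dyad of the locus lay at 916264, 734 bp to the right of the HTA1 start and beyond that gene. It reached 6.44 times the mean, and high phosphate had a dyad 4 bp away at 1.89 times the mean. It held 40 starvation and 27 high phosphate tags within 40 bp, a log2 ratio of 1.94 (1.20 to 2.70).

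At least 4-fold higher in starvation were 2 of the 39 starvation dyads, where 6.23% of all starvation dyads were. They were the promoter dyad at 914969 and a dyad of the right flank at 918334. The latter had no high phosphate dyad within 20 bp and held 27 starvation and 15 high phosphate tags, a log2 ratio of 2.22 (1.26 to 3.24). The share past 4-fold was thus near that of the genome, and the promoter dyad stood out by the size of its ratio.

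**Figure D4:**
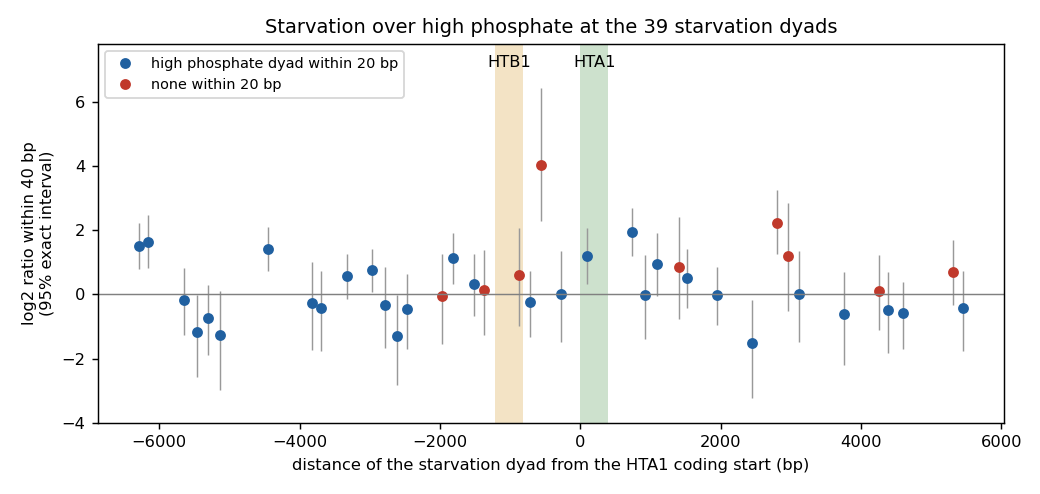
Log2 ratio of starvation over high phosphate within 40 bp (y axis) of each of the 39 starvation dyads against its distance from the HTA1 coding start in bp (x axis); bars are 95% exact intervals, and colour shows whether high phosphate had a dyad within 20 bp. The highest point, at 4.04, is the promoter dyad 561 bp upstream of HTA1.

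Strands were unequally represented in parts of the locus, such as the right flank. The shares of both libraries lay on opposite sides of 50% in the promoter, in HTA1 and in HTB1, with overlapping intervals. The right flank had 64.1% of its tags on the plus strand in starvation (58.8% to 69.2%, 95% exact binomial) and 70.1% in high phosphate (67.1% to 73%). Of all nuclear windows of that length, 97.0% and 99.5% had a lower plus-strand share. The promoter had 56.7% (44.0% to 68.8%) on the plus strand in starvation and 40.1% (32.0% to 48.7%) in high phosphate. HTA1 had 10 plus-strand and 24 minus-strand tags in starvation, or 29.4% (15.1% to 47.5%), and 42 and 41 in high phosphate, or 50.6% (39.4% to 61.8%). HTB1 had 10 and 8 tags in starvation and 35 and 38 in high phosphate. A nucleosome sequenced equally from both ends would give equal shares, and what sets the shares here was not tested.

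**Figure D5:**
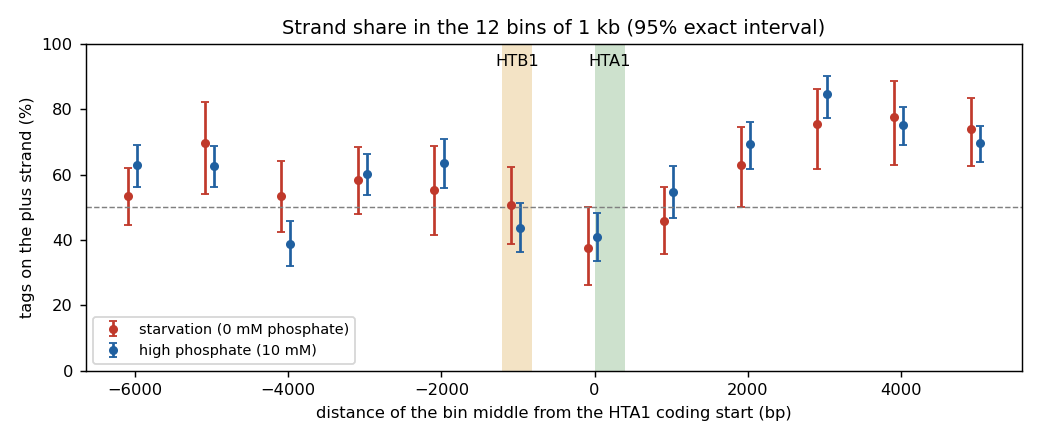
Share of tags on the plus strand in percent (y axis) in the 12 bins of 1 kb against the distance of the bin middle from the HTA1 coding start in bp (x axis); bars are 95% exact binomial intervals and the dashed line marks equal shares. The 4 bins from 917001 on lie above the line in both libraries, and the right flank as a whole is at 64.1% in starvation and 70.1% in high phosphate.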

How the data were processed

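Per the labels' protocols, gel-purified mononucleosomal DNA was sequenced on an Illumina Genome Analyzer and placed on sacCer1. The aligner was not given in the sources used here, nor was the read length. Per the files, the authors deposited 1 line per uniquely placed tag, with chromosome, position and strand. No line was repeated (0 in both files), so repeat tags had been collapsed, which flattens tall peaks most in the deeper library. Whether positions start at 0 or 1 is not stated.

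Tags were moved 73 bp towards the fragment middle and counted, without a pseudocount, from 909001 to 921000 on chromosome 4. HTB1 was taken as 914317 to 914712, the promoter as 914713 to 915529 and HTA1 as 915530 to 915928. Ratios were scaled to tags on the 16 nuclear chromosomes. Intervals (95%) are exact conditional binomial (Clopper-Pearson) for ratios, exact conditional odds ratios for differences between spans and exact binomial for shares. Bins and windows needed 20 tags over both libraries. Groups came from sample titles. Python 3.11.15, numpy 2.4.6 and scipy 1.17.1 were used, and the functions were tested on simulated data. The genes and spans were chosen with earlier results of these data known. Values are given for HTA1 and HTB1 alone by the naming rule, and other genes were not analysed here. Both coding spans carry the coordinates of the R64 gene table at hand and were used as holding in sacCer1 to about 50 bp. Alternatives were other scaling, moves, strands, borders, depth, smoothing and matching distances, and a correction that raises the count in 10 bp windows with many filled positions.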

Additional observations from a re-analysis of the deposited data

How the results depend on the processing

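No paired analysis was possible because there was 1 library per condition, which also leaves no replicate to drop. Of 79 values recomputed for the comparisons, 71 stayed within their interval, or within 1.5 times for counts. The strands moved 4: the promoter gave 0.79 from plus-strand and −0.18 from minus-strand tags, HTA1 gave −0.70 from plus-strand tags, and the right flank gave 0.15 from minus-strand tags; the cause was not tested. A smoothing SD of 30 bp left 30 starvation and 47 high phosphate dyads in the locus, with 19 starvation and 20 high phosphate dyads matched. Scaling to the median 10 kb bin, which adds 0.063 to every log2 ratio, left 0 bins of 1 kb at least 2-fold lower, and so did unmoved tags (0). Spans shifted by 50 bp either way gave values within the unshifted intervals, but the left shift gave intervals without 0 for HTB1 (−0.89, −1.80 to −0.071) and for the promoter against the coding regions (0.66, 0.0065 to 1.32). Thinning, a single random draw that was not repeated, did so for HTB1 (−1.04, −1.94 to −0.19) and for HTA1 against HTB1 (1.59, 0.39 to 2.83). Plus-strand tags did so for the promoter and the right flank (−0.25, −0.47 to −0.024). For the promoter dyad at 914969, alternatives were added after the data were seen. Its log2 ratio was 4.83 from plus-strand tags, 3.38 from minus-strand tags, 4.21 with the correction for filled positions and 4.70 with tags moved to the middle of the fragment length estimated for each library. After thinning, 0 high phosphate tags remained beside 19 starvation tags, and no ratio was formed. Depth limits short spans, such as HTB1 with 18 starvation tags and the promoter part next to HTA1 with 10.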

Other observations

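The unequal strands of the locus have a counterpart over the genome. Over 11560 nuclear bins of 1 kb, the plus-strand share ran from 33.3% at the 10th to 67.2% at the 90th percentile in starvation and from 35.3% to 65.2% in high phosphate, with a median of 50% in both. Across these bins, which share the genome's sequence and the placement of tags and are not independent replicates, Pearson's r between the libraries was 0.85.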
